A study of Mus musculus with 7 samples.

Results

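The Frizzled receptor family holds 10 mouse genes, Fzd1 to Fzd10, and its RNA was measured in damaged utricles with and without Fos overexpression. The members were taken by gene symbol from the 32285 genes of the count tables, as a gene family and not by any measured value. All 10 were found, and all 10 were among the 17155 genes that passed the filter on low counts. Utricles, the vestibular organs that sense linear acceleration, came from P2 wild-type C57BL/6J mice, where P2 is postnatal day 2, and were kept as explants. Every library was made from 12 pooled utricles that were damaged with 2 mM gentamicin, an aminoglycoside antibiotic that kills hair cells, for 24 h and were collected on day 5 after injury. For the 4 Gent+Fos OE libraries the utricles were in addition given AAV-Fos for 48 h, a PHP.eB adeno-associated virus in which the CMV promoter, which is not restricted to 1 cell type, drives mouse Fos. The 3 Gent libraries came from utricles for which the labels name gentamicin alone. It is not settled whether these utricles received a virus. The study also describes a control virus and an shRNA vector against Fos, and the deposited names of the Gent tables hold the letters sh, so an shRNA vector is among the possibilities. Each difference below, that of Fos included, is therefore between the groups as labelled, and what Gent stands for as a control rests on the labels. Whole organs were pooled, so a library mixes sensory epithelium with stroma, vessels, pigment cells and immune cells. Nothing in the sources used here states which animals gave which pool, so p-values measure the spread between these pools.

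Frizzled proteins are cell surface receptors that bind secreted Wnt ligands through a cysteine-rich domain outside the cell and pass the signal to Dishevelled inside it. With the co-receptors Lrp5 and Lrp6 they act in the beta-catenin pathway, which controls proliferation and cell fate and is known to drive division of supporting cells in the young inner ear. Without these co-receptors they act in planar polarity, the system that aligns the hair bundles of neighbouring hair cells, in which Fzd3 and Fzd6 have a known part.

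The sequences below show the part of the receptor that all members share, and they are given because it separates Fzd3 and Fzd6 from the others. In each coding sequence a script found exactly 1 block of 18 bases that codes for Lys-Thr-X-X-X-Trp, the motif just after the last membrane segment that binds Dishevelled. Capitals mark this block, and lower case letters mark the codons on either side. The letters come from the coding sequences of GENCODE vM39, are written 5′ to 3′ on the coding strand, and are numbered from the A of the start codon. The block of Fzd8 was found as well and is named only.
Fzd1: tccggcAAGACACTGAATTCCTGGaggaag
Fzd2: tccggcAAGACACTGCACTCGTGGaggaag
Fzd7: tcgggcAAGACCCTGCAGTCATGGcgtcgc
Fzd5: tccggcAAGACTCTGGAGTCTTGGcggcgg
Fzd4: tctgccAAAACTCTTCACACGTGGcaaaag
Fzd9: agttccAAGACTTTTCAGACTTGGcagagc
Fzd10: acttccAAGACCCTGCAGTCCTGGcaacac
Fzd3: agcaaaAAGACATGCTTTGAATGGgccagt
Fzd6: agcaaaAAGACGTGCACAGAATGGgccggg

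The block lay at coding bases 1504 to 1521 in Fzd3 and 1492 to 1509 in Fzd6, and the remaining tail was the longest in these members, with 159 codons in Fzd3 and 206 in Fzd6. In the other members the tail ran from 17 codons, in Fzd1, Fzd2 and Fzd7, to 74 codons in Fzd8. Fzd3 and Fzd6 shared 14 of the 18 bases of the block, and Fzd5 and Fzd8 shared 17. Over the whole coding sequence, identity was 81.3% between Fzd1 and Fzd2, 78.5% between Fzd2 and Fzd7, 78.1% between Fzd1 and Fzd7, and 75.3% between Fzd5 and Fzd8. It was 69.7% between Fzd9 and Fzd10 and 61.9% between Fzd3 and Fzd6. Even the closest pair, Fzd1 and Fzd2, shared no identical stretch of transcript longer than 47 bases, and reads that mapped to more than 1 place had not been counted. Of the exonic bases used for counting, 3.15% of those of Fzd6 overlapped another gene, and none of those of the other members did.

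Levels were first compared between members. Values in CPM are the reads of a gene scaled to a fixed library size after TMM normalization, and to compare genes they were divided by exonic length in kb. On this scale Fzd2, Fzd1 and Fzd7, the members closest in sequence, had the highest means over the 7 libraries, 27.2, 26.2 and 25.9 CPM per kb. Fzd6 followed with 18.1 CPM per kb and Fzd9 with 14.2. Fzd4, Fzd8 and Fzd3 had middle levels of 10.5, 8.54 and 7.15 CPM per kb, and Fzd10 and Fzd5 had the lowest levels, 2.87 and 2.13.

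Not every step of this order held within the libraries. Fzd2 was above Fzd1 in only 2 of 7 libraries, Fzd1 was above Fzd7 in 5, and Fzd9 was above Fzd4 in 5, so these neighbours could not be ranked beyond their spread. Fzd7 was above Fzd6, Fzd4 above Fzd8, Fzd3 above Fzd10 and Fzd10 above Fzd5 in 7 of 7 libraries. Fzd6 was above Fzd9, and Fzd8 above Fzd3, in 6 of 7. The ranges over libraries overlapped for all neighbours. The order of the means also differed between the groups. In Gent+Fos OE the means were 29.0 CPM per kb for Fzd7, 27.7 for Fzd1 and 25.8 for Fzd2. In Gent they were 21.7, 24.3 and 29.0 in the same order of genes. Gent replicate 2 weighed most in this Gent order, with 15.5, 19.4 and 33.6 CPM per kb. In Gent replicate 1 Fzd1 was above Fzd2, with 24.6, 29.1 and 27.4. The 3 genes lay close together in Gent replicate 3, with 25.1, 24.3 and 25.96. Fzd9 was above Fzd6 in the Gent means, 16.6 against 14.0 CPM per kb, and below it in those of Gent+Fos OE, 12.4 against 21.2. The Gent order of Fzd9 and Fzd6 came from Gent replicate 2 alone, with 21.8 for Fzd9 and 9.65 for Fzd6. In Gent replicates 1 and 3 Fzd9 was below Fzd6, 12.9 against 15.8 and 15.2 against 16.6.

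**Figure D1:**
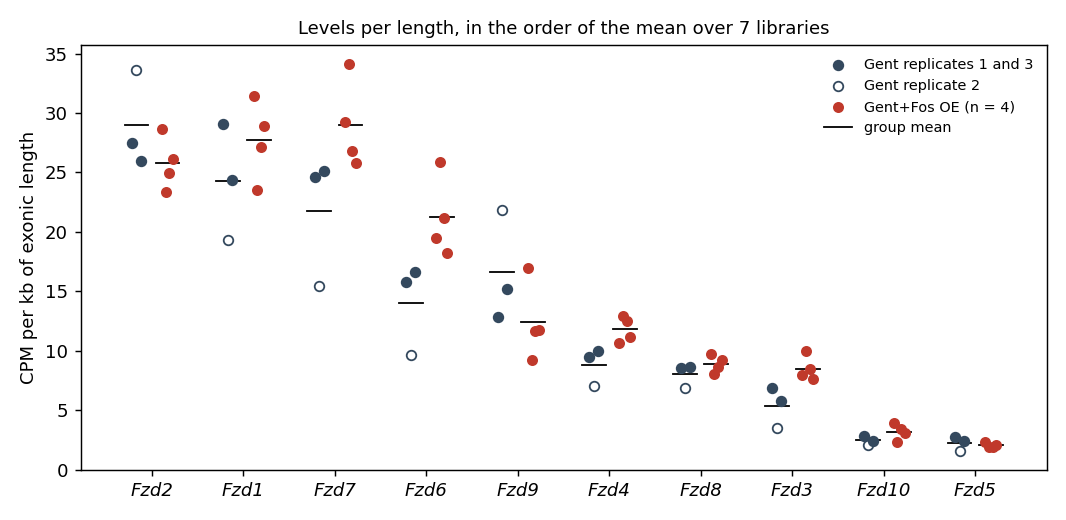
Level of each Frizzled gene per exonic length, in CPM per kb on a linear axis, with 1 point per library, Gent replicate 2 as an open circle and bars at the group means. Members stand in the order of their mean over the 7 libraries, from Fzd2 at 27.2 to Fzd5 at 2.13 CPM per kb.

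The comparison of Gent+Fos OE with Gent asks whether the receptors through which Wnt ligands act were higher or lower when Fos was overexpressed after injury. Fzd3, Fzd6, Fzd4 and Fzd7 were higher in all 4 Gent+Fos OE libraries than in any Gent library, by log2 fold changes of 0.67, 0.60, 0.42 and 0.42. None of the 10 members met the call limits, an adjusted p below 0.01 in edgeR together with a log2 fold change beyond 0.25 in either direction, which 0.414% of the genes tested met. In simulated counts these limits called 1 of 67 genes with a true log2 fold change of 0.5 in either direction. That 0 members were called thus does not show that they were unchanged. An unadjusted p under 0.05 was found for Fzd3, Fzd6, Fzd4 and Fzd7, all higher, whereas 24.5% of all genes tested had such a p, made up of 11.1% higher and 13.4% lower. With the trend of counts on gene length removed, the shares over all genes became 7.92% higher and 15.8% lower of 23.7% in all, while the same 4 members had an unadjusted p under 0.05 and 0.799% of genes met the call limits. Groups did not overlap for 4 of 10 members, against 23.4% of all genes and 11.3% in this direction. The DESeq2 test called 0 members as well, with 2.86% of genes called. Of the 10 members, 7 had a log2 fold change above 0 and 3 below, where 49.9% of all genes lay above 0, and their median was 0.28 against -0.00075 for all genes. These are bulk libraries, in which fewer cells of a type cannot be told apart from less RNA per cell.

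**Figure D2:**
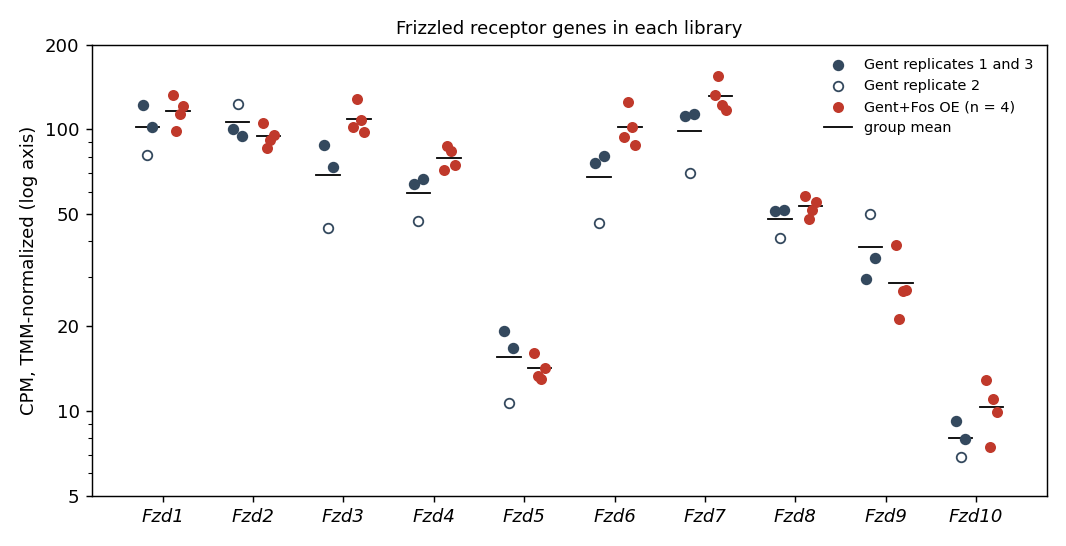
Level of each Frizzled gene in CPM on a log axis, with 1 point per library and bars at the group means. The 4 Gent+Fos OE points of Fzd3, Fzd4, Fzd6 and Fzd7 lie above all 3 Gent points, and Gent replicate 2, the open circle, is the lowest library for 8 members and the highest for Fzd2 and Fzd9.

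One library, Gent replicate 2, stood apart and touches each of these values. It was low in long genes. Over all genes tested, the Spearman correlation of its deviation from the mean library with gene length was -0.496, against -0.221 to 0.325 in the other 6 libraries. By group, it was -0.221 in Gent replicate 3, 0.153 in Gent replicate 1 and 0.124 to 0.325 in Gent+Fos OE. The log2 fold changes of all genes also rose with gene length (Spearman correlation 0.378), so the trend in part follows the groups. The share of mitochondrial counts in Gent replicate 2 was 2.86%, against 1.74% to 1.99%. It had the lowest CPM of the 7 libraries for 8 Frizzled genes and the highest for Fzd2 and Fzd9, and 7 of the 10 members are longer than the median tested gene, which has 4084 exonic bp. Without this library none of the 10 members was called, against 0.787% of genes. Without it 4 members had an unadjusted p under 0.05, namely Fzd3, Fzd4 and Fzd6, which were higher, and Fzd5, which was lower, against 20.2% of genes (9.99% higher, 10.2% lower). The family median then dropped to 0.13. With this library kept and the length trend removed, the family median was 0.24.

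Fzd3, the planar polarity receptor with the longest exons of the family (12804 bp in 8 exon blocks, mm10 chr14:65192449-65262463, minus strand), had the highest log2 fold change of the family with all libraries and no length correction. It measured 102, 128, 108 and 97.5 CPM in Gent+Fos OE replicates 1 to 4 and 87.7, 44.5 and 73.6 CPM in Gent replicates 1 to 3. The lowest Gent+Fos OE library was thus above the highest Gent library, and Gent replicate 2 was far below the other Gent libraries. The group means were 109 ± 13.5 CPM (SD, n = 4) against 68.6 ± 22.0 CPM (SD, n = 3), which makes a fold of 1.59. In edgeR the log2 fold change was 0.67 (SE 0.21, adjusted p = 0.116), and the exact permutation test gave p = 0.0286 (two-sided), the smallest that 4 against 3 libraries allow. The log2 fold change was 0.43 without Gent replicate 2 (edgeR adjusted p = 0.0959) and 0.35 after removal of the length trend, and DESeq2 gave an adjusted p of 0.0398. With the trends on length and GC content both removed, Fzd3 was at 0.27 (edgeR adjusted p = 0.141), below Fzd6 at 0.54. Without Gent replicate 2 and with the length correction, Fzd3 was at 0.26. Gent replicate 2 differed from the mean of the other Gent libraries by a log2 ratio of -0.86 for Fzd3, and the trend over all genes at this length gave -0.55.

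Fzd6, the other planar polarity receptor and the other one with a long tail (4818 bp in 9 exon blocks, mm10 chr15:39006034-39038188, plus strand), had a like profile. Its levels were 94.1, 125, 102 and 87.9 CPM in Gent+Fos OE and 76.1, 46.5 and 80.1 CPM in Gent. Again the groups did not overlap, although the gap between 80.1 and 87.9 CPM was narrow, and Gent+Fos OE replicate 2 was the highest library and Gent replicate 2 the lowest. Group means were 102 ± 16.2 CPM (SD, n = 4) and 67.6 ± 18.4 CPM (SD, n = 3). The log2 fold change was 0.60 (SE 0.20, edgeR adjusted p = 0.126) with an exact permutation p of 0.0286 (two-sided). It was 0.38 without Gent replicate 2 and 0.55 after removal of the length trend, and Gent replicate 2 differed from the mean of the other Gent libraries by a log2 ratio of -0.75, where the trend at this length gave -0.09. Fzd3 and Fzd6 were the 2 members whose unadjusted p was under 0.05 in all 18 alternative fits, with highest values of 0.0339 and 0.0401 in edgeR, DESeq2 or limma-voom.

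Fzd4, which also binds Norrin together with Lrp5 and Tspan12 and is known for its part in vessels of the retina and ear (6720 bp, mm10 chr7:89404355-89413134, plus strand), measured 71.8, 87.0, 84.0 and 74.7 CPM in Gent+Fos OE and 63.9, 47.2 and 66.8 CPM in Gent. Its libraries were tighter than those of Fzd3, and the groups did not overlap. The means were 79.4 ± 7.27 CPM (SD, n = 4) and 59.3 ± 10.6 CPM (SD, n = 3), with a log2 fold change of 0.42 (SE 0.15, edgeR adjusted p = 0.141) and an exact permutation p of 0.0286 (two-sided). The log2 fold change was 0.28 without Gent replicate 2 and 0.29 after removal of the length trend.

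Fzd7, the receptor of the Fzd1, Fzd2 and Fzd7 subgroup that is known from stem cells of the gut (4532 bp, 1 exon, mm10 chr1:59482424-59486955, plus strand), measured 133, 155, 122 and 117 CPM in Gent+Fos OE and 112, 70.2 and 114 CPM in Gent. The groups were separated only by the step from 114 to 117 CPM, and Gent replicates 1 and 3 lay close to the lowest Gent+Fos OE libraries. The means were 131 ± 16.8 CPM (SD, n = 4) and 98.5 ± 24.6 CPM (SD, n = 3), with a log2 fold change of 0.42 (SE 0.18, edgeR adjusted p = 0.194) and an exact permutation p of 0.0286 (two-sided). Without Gent replicate 2 the log2 fold change was 0.22 and the unadjusted edgeR p 0.0884.

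The groups overlapped for both relatives of Fzd7. Fzd1 (4197 bp, 1 exon, mm10 chr5:4753839-4758035, minus strand) measured 132, 98.6, 114 and 121 CPM in Gent+Fos OE and 122, 81.2 and 102 CPM in Gent, so the groups overlapped (log2 fold change 0.19, SE 0.16, edgeR adjusted p = 0.464, and 0.05 without Gent replicate 2). Fzd2 (3663 bp, 1 exon, mm10 chr11:102604396-102608058, plus strand) measured 105, 85.7, 91.5 and 95.8 CPM in Gent+Fos OE and 101, 123 and 95.1 CPM in Gent. Gent replicate 2 was its highest library, and its log2 fold change was -0.17 (SE 0.13, edgeR adjusted p = 0.441) with that library and -0.05 without it.

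Fzd5 and Fzd8 form another subgroup. Fzd8 (5974 bp, 1 exon) measured 58.1, 48.2, 51.8 and 55.1 CPM in Gent+Fos OE and 51.3, 41.2 and 51.6 CPM in Gent, with overlapping groups (log2 fold change 0.15, SE 0.13, edgeR adjusted p = 0.490, and 0.05 without Gent replicate 2). Fzd5 (6915 bp, mm10 chr1:64730558-64737751, minus strand) measured 16.1, 13.3, 13.01 and 14.2 CPM in Gent+Fos OE and 19.2, 10.7 and 16.8 CPM in Gent. Gent replicates 1 and 3 were above all Gent+Fos OE libraries and Gent replicate 2 was below them. Its log2 fold change was -0.13 (SE 0.20, edgeR adjusted p = 0.692) with all libraries and -0.35 without Gent replicate 2 (edgeR adjusted p = 0.189), and it was 0.04 without Gent replicate 1.

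Fzd9 and Fzd10 complete the family. Fzd9 (2293 bp, 1 exon, mm10 chr5:135248938-135251230, minus strand), the member with the shortest transcript, measured 38.9, 21.2, 26.7 and 26.9 CPM in Gent+Fos OE and 29.5, 50.0 and 34.8 CPM in Gent. Its highest library was Gent replicate 2, and its log2 fold change was -0.42 (SE 0.23, edgeR adjusted p = 0.265) with all libraries and -0.18 without that one. Fzd9 was at -0.62 without Gent+Fos OE replicate 1 and -0.58 without Gent replicate 1, with an unadjusted edgeR p under 0.05 in both fits. Fzd10 (3250 bp, 1 exon, mm10 chr5:128600844-128604093, plus strand) measured 12.9, 7.47, 11.0 and 9.95 CPM in Gent+Fos OE and 9.21, 6.86 and 7.92 CPM in Gent. The groups overlapped, with a log2 fold change of 0.37 (SE 0.21, edgeR adjusted p = 0.285), which was 0.24 without Gent+Fos OE replicate 1 and 0.49 without Gent+Fos OE replicate 2, where its unadjusted p was under 0.05. Counts per member and library ran from 214 to 5051, and because both reads of a pair were counted, the number of fragments can be as low as 0.5 of that. The counting error was thus 6.84% to 9.67% at the lowest count and 1.41% to 1.99% at the highest, while the relative SD between libraries of a group ran from 8.04% to 32.1%.

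**Figure D3:**
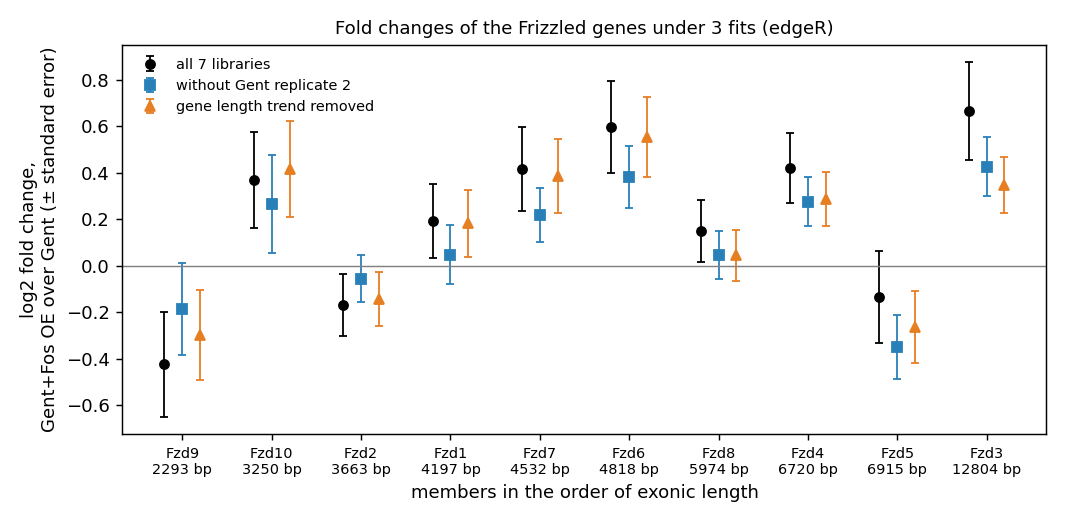
Log2 fold change of each member, Gent+Fos OE over Gent, with its standard error from edgeR, with all 7 libraries, without Gent replicate 2 and with the gene length trend removed. Members stand in the order of exonic length, from Fzd9 with 2293 bp to Fzd3 with 12804 bp, and the value of Fzd3 moves from 0.67 to 0.43 and 0.35.

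Summed over the 10 members, Frizzled reads came to 700 to 769 CPM with Fos overexpression and 521 to 671 CPM in Gent. The groups did not overlap, and the mean sum was 739 ± 32.8 CPM (SD, n = 4) against 612 ± 79.5 CPM (SD, n = 3). The Gent mean was 657 CPM without Gent replicate 2, and the difference went from 127 to 82.25 CPM. Per kb of exon, the sums were 151 ± 7.31 and 133 ± 10.3 CPM per kb (SD), and the ranges 144 to 161 and 121 to 140 CPM per kb did not overlap either.

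The make-up of the family was compared as the share of each member in the summed CPM per kb of a library, a measure that does not depend on how libraries are scaled to each other. It still carries the trends of a library on gene length and GC content, for which shares were not corrected. With both trends removed, the log2 fold change was -0.06 for Fzd2 and 0.27 for Fzd3, in place of -0.17 and 0.67. The share of Fzd2 was 17.9%, 15.4%, 17.04% and 18.2% in Gent+Fos OE and 19.6%, 27.8% and 19.0% in Gent. Its mean was 17.1% ± 1.22 (SD, n = 4) against 22.1% ± 4.91 (SD, n = 3), the groups did not overlap, and the exact permutation p was 0.0286 (two-sided). The share of Fzd3 was 4.95%, 6.60%, 5.75% and 5.29% in Gent+Fos OE and 4.88%, 2.87% and 4.22% in Gent, without overlap (mean 5.65% ± 0.714, n = 4, against 3.99% ± 1.02, n = 3, exact permutation p = 0.0286). Gent replicate 2 held the outermost share in both genes, and without it the difference, Gent+Fos OE minus Gent, went from -4.99 to -2.16 percentage points for Fzd2 and from 1.66 to 1.10 for Fzd3.

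Of the other shares, Fzd6 took 14.1% against 10.5% and Fzd9 8.195% against 12.8%, with an exact permutation p of 0.0857 for both. Without Gent replicate 2 these differences, Gent+Fos OE minus Gent, went from 3.63 to 2.38 percentage points for Fzd6 and from -4.58 to -1.95 for Fzd9. The remaining 6 members had exact permutation p-values of 0.143 to 0.886. In all, 10 shares were compared, and because they sum to 100% they are not independent. No p here could go below 0.0286, so none would hold after adjustment over 10 comparisons.

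**Figure D4:**
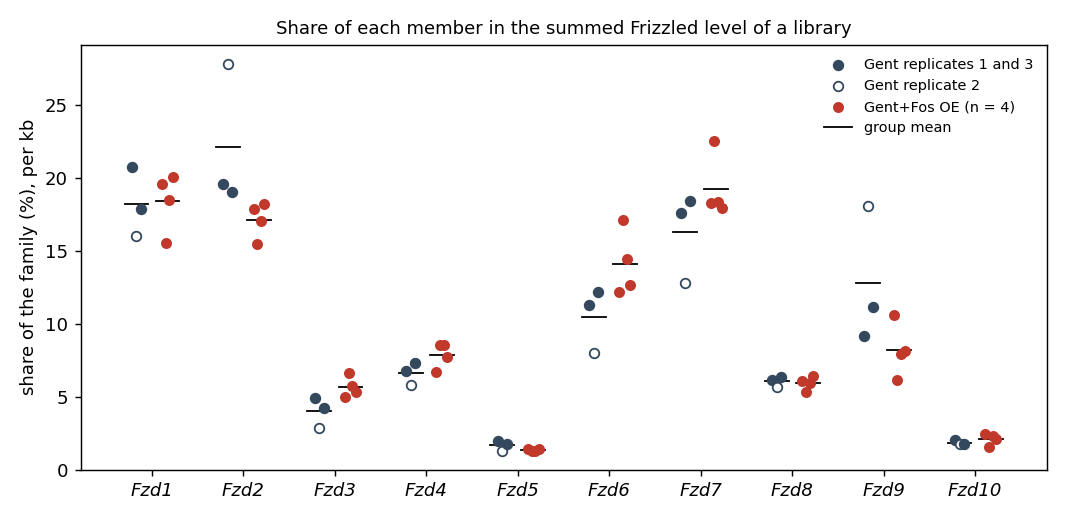
Share of each member in the summed Frizzled level per kb of a library, in percent on a linear axis that starts at 0, with 1 point per library and bars at the group means. All Gent+Fos OE points of Fzd2 lie below the Gent points and all those of Fzd3 above them, and Gent replicate 2, the open circle, lies farthest out for Fzd2 and Fzd9.

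Profiles over the 7 libraries were compared by the root mean square difference of log2 CPM after each gene was centred on its own mean, as a description with no test. Among the members, the closest pairs were Fzd1 with Fzd8 (0.0958), Fzd3 with Fzd6 (0.108), Fzd6 with Fzd7 (0.117) and Fzd4 with Fzd7 (0.126). Among the 15924 other tested genes with a symbol, the gene most like Fzd3 was Clock, a transcription factor of the circadian clock, with a difference of 0.0499 where the median gene had 0.537. Clock is also a long gene, with 13727 exonic bp, and its 7 points share the libraries and their length trend with Fzd3. The gene most like Fzd6 was Amer2, which codes for a membrane protein that binds Apc (0.0389, median 0.494). Vps37a, a part of the ESCRT-I sorting complex, was most like Fzd4 (0.0456, median 0.385), and Cracd, a regulator of actin capping, was most like Fzd7 (0.0445, median 0.424). Amer2, Vps37a and Cracd are also long, with 10660, 9090 and 12305 exonic bp. Each match is the closest of 15924 genes and lies below the median by choice.

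The promoters were searched for motifs of AP-1, the dimer that c-Fos forms with Jun proteins. RefSeq promoter windows on GRCm38.p6, from 250 bases before to 50 after the start of the gene, were at hand for 6 members, Fzd1, Fzd4, Fzd5, Fzd7, Fzd9 and Fzd10. Fzd2, Fzd3, Fzd6 and Fzd8 were not searched. Neither TGACTCA nor its reverse complement TGAGTCA was found in the 6 windows, and 5.20% of 32851 windows held one of them. The cAMP response element TGACGTCA was likewise found in 0 of the 6, against 1.79% of all windows. At shares this low, 6 windows are too few to show a lack of these motifs. A window without these letters says nothing on binding elsewhere at the gene.

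The Wnt ligands, which activate these receptors, were counted next, and none of the 7 other pathway lists held a gene called by edgeR. Of 19 ligands, 14 passed the filter, 1 was higher and 1 lower at an unadjusted p under 0.05 (all genes, 11.1% and 13.4%), and the median log2 fold change was 0.19. Wnt5a, the ligand best known in planar polarity, had 287 ± 20.3 CPM against 200 ± 47.8 CPM (log2 fold change 0.52, SE 0.17, edgeR adjusted p = 0.121, and 0.33 without Gent replicate 2), and Wnt6 had 8.80 ± 4.26 against 17.4 ± 5.84 CPM (log2 fold change -0.98, SE 0.33, edgeR adjusted p = 0.128). Without Gent replicate 2 the ligands past this p were 4 of 14, all higher, where 9.99% of all genes were higher, namely Wnt2, Wnt4, Wnt5a and Wnt7b, named after their values were seen.

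Among the 7 co-receptors and other Wnt receptors, all tested, 2 were higher and 0 lower at an unadjusted p under 0.05, with a median of 0.34 that dropped to 0.17 without Gent replicate 2. These were Musk, a receptor kinase with a Frizzled-like domain (8.59 ± 1.41 against 4.72 ± 1.64 CPM, log2 fold change 0.86, edgeR adjusted p = 0.105), and Ror1, a kinase that binds Wnt5a (77.5 ± 16.1 against 54.4 ± 14.6 CPM, log2 fold change 0.51, edgeR adjusted p = 0.179). Of 13 secreted antagonists and their co-receptors, 10 were tested and 1 was higher, Kremen1, a receptor for Dkk proteins (log2 fold change 0.37, edgeR adjusted p = 0.179), with a median of -0.04. Without Gent replicate 2 the unadjusted p was 0.0862 for Ror1 (log2 fold change 0.30) and 0.0594 for Kremen1, so 1 of the co-receptors, Musk, and 0 of the antagonists were then past this p.

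Genes that set the amount of Frizzled at the cell surface or assist single receptors went both ways. Of 15 listed, 13 were tested, and 2 were higher and 2 lower at an unadjusted p under 0.05, with a median of 0.13 that went to -0.0090 without Gent replicate 2. Znrf3, the ubiquitin ligase that removes Frizzled from the membrane, had 23.1 ± 1.66 CPM against 14.7 ± 4.59 CPM (log2 fold change 0.65, edgeR adjusted p = 0.117, and 0.41 without Gent replicate 2). Rspo3, a secreted protein that blocks this removal, had 27.8 ± 5.93 CPM against 44.0 ± 6.72 CPM (log2 fold change -0.66, edgeR adjusted p = 0.0857). Shisa3, of a family that holds immature Frizzled inside the cell, had 9.57 ± 3.37 CPM against 22.3 ± 10.01 CPM (log2 fold change -1.22, edgeR adjusted p = 0.0899). The fourth, Lgr6, a receptor for R-spondins, is named after its value was seen and had a log2 fold change of 0.69 (edgeR adjusted p = 0.139).

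Inside the cell, 2 of the 10 Dishevelled and destruction complex genes were higher and 0 lower at an unadjusted p under 0.05, with a median of 0.21. After removal of the length trend the median was 0.06 and 1 gene, Apc, was past this p. Apc, the scaffold of the complex that degrades beta-catenin, had 291 ± 36.3 CPM against 162 ± 54.7 CPM (log2 fold change 0.85, edgeR adjusted p = 0.0822), and DESeq2 called it (adjusted p = 0.00744). Its log2 fold change was 0.46 after removal of the length trend and 0.59 without Gent replicate 2. Axin2, a target gene that is widely read as a gauge of beta-catenin signalling, had 51.7 ± 3.92 CPM against 42.9 ± 2.94 CPM without overlap (log2 fold change 0.27, SE 0.12, edgeR adjusted p = 0.201). One gene of this list, Apc, had, without Gent replicate 2, an unadjusted p under 0.05. Of 8 TCF/LEF genes and beta-catenin cofactors, 1 was higher, Bcl9 (log2 fold change 0.59, edgeR adjusted p = 0.0995, and 0.39 after removal of the length trend), and the median was 0.11, or -0.00068 after removal of the length trend.

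The planar polarity partners of Frizzled had a median of 0.41, with 4 of 9 higher and 0 lower at an unadjusted p under 0.05, where 11.1% of all genes were higher and 13.4% lower. Celsr1, a cadherin that binds itself across neighbouring cells, had 107 ± 24.9 CPM against 65.2 ± 13.9 CPM (log2 fold change 0.71, edgeR adjusted p = 0.102). Vangl2, which stands on the opposite cell side to Frizzled, had 69.9 ± 12.6 CPM against 45.7 ± 8.98 CPM (log2 fold change 0.61, edgeR adjusted p = 0.105). Celsr2 had 74.5 ± 23.7 CPM against 43.4 ± 7.23 CPM (log2 fold change 0.78, edgeR adjusted p = 0.106). The groups did not overlap for any of the 3, as for 23.4% of all genes, and Celsr3, named after its value was seen, was the fourth, with a log2 fold change of 0.68 (edgeR adjusted p = 0.133). The list's median was 0.27 without Gent replicate 2 and 0.22 after removal of the length trend, where the Frizzled median was 0.24. In that fit 3 of the 9 were higher and 1 lower at an unadjusted p under 0.05, and the log2 fold changes were 0.41 for Celsr1, 0.45 for Celsr2 and 0.32 for Celsr3. Without Gent replicate 2 6 of the 9 had an unadjusted p under 0.05, against 20.2% of all genes, with Vangl1 higher and Prickle1 lower beside the first 4, both named after their values were seen.

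**Figure D5:**
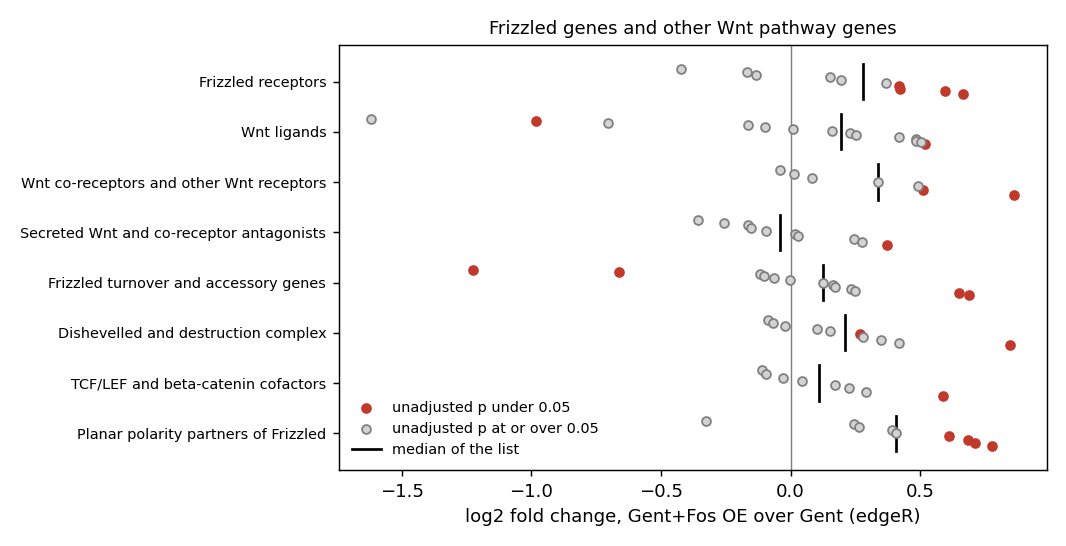
Log2 fold change, Gent+Fos OE over Gent, of the tested genes of the Frizzled family and of 7 other lists of Wnt pathway genes, with 1 point per gene, red where the unadjusted edgeR p is under 0.05, and a black bar at the median of the list. The Frizzled median is 0.28, the planar polarity median 0.41 and the antagonist median -0.04.

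The make-up of the tissue was read from marker genes, and its part in the Frizzled values was not tested. Fos itself, the check of the overexpression, had 154 ± 8.46 CPM in Gent+Fos OE and 38.2 ± 3.18 CPM in Gent (log2 fold change 2.01, SE 0.13). No marker was at 0 in every library. Summed hair cell markers (10 genes) ran from 678 to 870 CPM in Gent+Fos OE and from 594 to 740 CPM in Gent, and summed supporting cell markers (10 genes) from 1681 to 2358 CPM against 1251 to 1521 CPM. Myo6 had the highest mean CPM of the hair cell markers over all libraries, 251 against 243 for Otof. In Gent alone Otof, named after its value was seen, was higher (222 against 206 CPM). In the supporting cell list Otog, a glycoprotein of the otolithic membrane, was called (1065 ± 256 against 447 ± 17.6 CPM, log2 fold change 1.25, edgeR adjusted p = 0.00851), a call that was lost after removal of the length trend (0.94, edgeR adjusted p = 0.015), while Tectb, also of that membrane and named after its value was seen, had a log2 fold change of -1.39 (edgeR adjusted p = 0.0348). Without Gent replicate 2 Otog was called higher (1.22, edgeR adjusted p = 0.00747) and Tectb lower (-1.63, edgeR adjusted p = 0.00413). At an unadjusted p under 0.05, 3 supporting cell markers were higher and 1 lower, and 3 hair cell markers were higher and 0 lower. After removal of the length trend 1 hair cell marker was higher at this p and the median of that list went from 0.16 to 0.0096, with Myo6 at 0.16 in place of 0.47. Without Gent replicate 2 the hair cell median was 0.19, and 4 markers were higher at this p, where 9.99% of all genes were. In that fit Pvalb, named after its value was seen, was called (1.37 in place of 0.81, edgeR adjusted p = 0.00464), as were 0.787% of all genes. Macrophage markers (8 genes) summed to 950 to 1578 CPM against 1780 to 2297 CPM, with Adgre1 the most abundant, 7 of 8 lower at an unadjusted p under 0.05 and Cd14 called lower (log2 fold change -1.15), and melanocyte markers (6 genes) to 45.7 to 50.9 CPM against 87.6 to 124 CPM, with 5 of 6 lower at that p and Dct and Tyrp1 called lower (-1.40 and -1.87, the call of Tyrp1 being lost without Gent replicate 2, with an edgeR adjusted p of 0.0132). The sums of macrophage and melanocyte markers did not overlap between the groups. Those of the supporting cell list did not overlap either, but without Otog the other 9 markers summed to 849 to 1003 CPM against 806 to 1055 CPM, which overlap, and 6 of the 10 supporting cell markers had a log2 fold change below 0 (median -0.03). Sums of mesenchyme markers, led by Col1a2, ran from 6882 to 10442 CPM against 8436 to 12320 CPM, with 2 of 10 lower at that p. Of the 6 glial markers, 4 were lower and 1 higher at that p, and their sums ran from 220 to 288 CPM against 236 to 251 CPM. The sums of hair cell, mesenchyme and glial markers overlapped, as did those of endothelial, pericyte, neuronal and dark cell markers, led by Emcn, Pdgfrb, Nefm and Slc12a2 (129 to 175, 150 to 196, 68.9 to 87.4 and 541 to 696 CPM against 141 to 204, 153 to 219, 60.1 to 79.5 and 458 to 625 CPM), in which 1, 1, 1 and 0 markers were higher at that p and none lower. Pmp22 led the glial list.

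Library totals ran from 27879889 to 34335214 counts (median 31313523). Replicates of a group differed by 17.8 to 147 times the variance that sampling of reads gives, a ratio that counting both reads of a pair can raise. No library was thus another of its group sequenced again, and the spread between libraries set the precision. This ratio does not show that the pools came from different animals.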

How the data were processed

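RNA sequencing libraries of 4 Gent+Fos OE and 3 Gent pools of 12 utricles were grouped by the sample labels. Each deposited table holds raw counts, the whole number of reads on each gene, which the authors had not normalized. Per the file headers, featureCounts counted both reads of a pair separately, without strand, and left out reads that mapped to several places or hit several genes, with an annotation on mm10. The submitters' processing notes name Trim Galore 0.6.10, HISAT2 2.2.1, featureCounts 2.0.6, DESeq2 1.34.0 and mm10, whereas the paper's methods name mm39, other versions of all these tools but HISAT2, and fewer Gent+Fos OE replicates than the labels list. All 7 libraries were used. Because strand was not used, reads of a gene and of a gene opposite to it cannot be told apart. Symbols were given to 24497 of 32285 genes, where GENCODE and RefSeq give 1 symbol to the same ID at the same locus.

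The members, gene lists and tests were chosen with earlier results of these data known. Counts were filtered by filterByExpr, normalized by TMM and compared by the quasi-likelihood F-test of edgeR 4.0.16 in R 4.3.3 with Benjamini-Hochberg adjustment over the 17155 genes tested. Calls needed an adjusted p below 0.01 together with a log2 fold change beyond 0.25 in either direction. Alternatives were DESeq2 1.42.0 on genes with at least 10 counts in total, limma-voom (limma 3.58.1), other scalings and filters, removal of trends on gene length without and with GC content by a loess curve (span 0.3), a replicate block, and leaving out each library. The fit without Gent replicate 2 together with the length correction was added after the data were seen. Single members and shares were compared by an exact permutation test, two-sided, on mean differences over the 35 assignments of the libraries (log2 CPM with a prior count of 2, or percent). CPM are TMM-normalized, and errors are SD unless named SE.

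Named genes were the 10 members, Fos, Axin2, in each pathway list the called genes or up to 3 with the lowest unadjusted p under 0.05, in marker lists the most abundant and the called genes, and the gene most alike each member with an unadjusted p under 0.05. Most abundant means the highest mean CPM over all libraries of both groups, which need not hold within a group. Sequence work used Python 3.11.15 with Biopython 1.88, on the longest transcript with a CCDS entry of each member. The edgeR fit was tested on simulated data with known changes. Of 67 genes each, it called 1 at a true log2 fold change of 0.5 in either direction and 46 at 1. With a length trend put into Gent replicate 2 and left uncorrected, it called 0 and 16.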

Additional observations from a re-analysis of the deposited data

Results flagged for a closer look

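The share of Fzd7 in the summed Frizzled level per kb was flagged in the Gent+Fos OE group because 1 library lay far from the others. Replicate 2 had 22.5%, while the other 3 had 17.9% to 18.3%, a gap of 0.923 of the group's whole range, above Dixon's 95% critical value for 4 samples. The same library had the highest CPM of the group for Fzd3, Fzd4, Fzd6 and Fzd7. In all, 22 measures of the 4 Gent+Fos OE libraries were tested in this way, and chance alone flags about 1 in 20 groups. The 3 Gent libraries are too few for this test.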

How the results depend on the processing

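Of the 18 alternative fits, none called a Frizzled member (0% to 2.86% of all genes tested), and 3 to 5 members had an unadjusted p under 0.05 (16.8% to 33.3% of all genes). The family median log2 fold change was 0.25 to 0.29 under other scalings, filters and tools, 0.24 with the length correction and 0.26 with that and GC content. It was 0.13 to 0.41 when 1 library was left out (lowest without Gent replicate 2, highest without Gent replicate 1), and 0.12 without Gent replicate 2 and with the length correction, a fit chosen after the data were seen. In the fits without 1 library, 3 to 5 members had such a p. The log2 fold change of Fzd5 turned sign when Gent replicate 1 was left out (0.043) and was -0.349 when Gent replicate 2 was left out, and the cause was not tested. The log2 fold changes of the other members kept their direction in every alternative. Shares of raw counts, not divided by length, gave differences of 3.69 percentage points for Fzd3, -0.63 for Fzd8, -2.62 for Fzd9 and 1.83 for Fzd7, and that of Fzd1 turned from 0.23 to -0.77. Libraries with the same replicate number did not visibly deviate together (correlations of 0.0643, -0.038 and 0.0317), though so few pairs cannot exclude a pairing. With a replicate block 0 members and 0 of all genes were called, 3 members (Fzd3, Fzd4, Fzd6) had an unadjusted p under 0.05 (19.8% of all genes) and the family median was 0.27. Adding the length correction to the block gave 5 members (20.7% of all genes) and 0.24. The lowest member count was 214, and the number of pools, 4 and 3, limits the precision.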
